A study of Mus musculus with 5 samples.

Results

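The interferon response genes described here are 37 genes chosen by name as known targets of interferon signalling, and 36 of them were among the 13911 genes of the table of all time points; Gbp6 was not analysed here. They were followed in single-cell transcriptomes of OT-I CD8+ T cells of the mouse strain C57BL/6-Tg(TcraTcrb)1100Mjb/J, whose transgenic T cell receptor recognises the ovalbumin peptide SIINFEKL. They were taken from spleen and lymph node and enriched by FACS at each time. The question put by the design was how MDSCs (myeloid-derived suppressor cells, which are immature and restrain T cells) alter the transcriptome during stimulation by peptide-pulsed dendritic cells (DCs). The 5 groups were 2952 cells taken at 0 h, 2247 cells after 24 h with DCs and MDSCs (24 h DC+MDSC), 1562 cells after 24 h with DCs alone (24 h DC), 4942 cells after 72 h with DCs and MDSCs (72 h DC+MDSC) and 1926 cells after 72 h with DCs alone (72 h DC). All groups carried the same T cell receptor transgene. Each group was 1 library, so there was no replicate, nothing could be tested, and a ratio compares a pair of libraries. No library was cultured without pulsed DCs, so stimulation and time in culture cannot be told apart.

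Interferons reach cells through separate receptors. Type I interferons bind Ifnar1 and Ifnar2, which act through the kinases Jak1 and Tyk2 on a complex with Stat2 and Irf9 that binds the interferon-stimulated response element (ISRE). Interferon gamma, a product of activated CD8+ T cells themselves, binds Ifngr1 and Ifngr2, which act through Jak1 and Jak2 on genes with a gamma-activated site (GAS); many genes answer both. The members were accordingly held in groups by their usual label: 24 type I-like genes, most of them antiviral effectors and sensors, and 10 measured gamma-like genes of the guanylate binding protein (Gbp) and immunity-related GTPase (Irg) families, which attack vacuoles that shelter intracellular pathogens. Irf1, the transcription factor induced early by interferon gamma, and Tap1, the transporter that carries peptides to MHC class I, were kept in neither group.

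Promoter sequence was available in the RefSeq table (build GRCm38.p6, 250 bases before to 50 after the annotated start) for 27 of the 37 members. The ISRE core, GAAA and again GAAA after any 2 bases, searched on both strands, was present in 15 of these genes (55.6%), against 1079 of 27025 genes with a promoter in the table (3.99%). The GAS letters TTCNNNGAA, which read the same on both strands, were present in 9 members (33.3%) and in 9.55% of all genes with a promoter. By group, the ISRE core was found in 6 of 7 gamma-like members (Gbp2, Gbp3, Gbp7, Igtp, Irgm1 and Irgm2) and in 9 of 18 type I-like members. Matches that overlapped were each counted, and a match is a description of letters, not of binding. The promoters of 6 members whose levels are contrasted below are shown in the direction of transcription, with the matched motifs in capitals. Isg15, a ubiquitin-like modifier (minus strand, chr4:156200769-156201068), holds 3 overlapping ISRE matches in a run that begins 78 bases before the start:
Isg15: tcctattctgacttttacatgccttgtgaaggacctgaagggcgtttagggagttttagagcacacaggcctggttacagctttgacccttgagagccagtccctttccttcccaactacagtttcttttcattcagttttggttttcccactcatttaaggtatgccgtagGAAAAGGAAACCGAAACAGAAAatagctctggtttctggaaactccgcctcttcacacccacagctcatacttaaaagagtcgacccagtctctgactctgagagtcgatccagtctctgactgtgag
Gbp2, a guanylate binding protein (plus strand, chr3:142620413-142620712), has 1 ISRE match on the opposite strand, 59 bases before the RefSeq start, while in GENCODE M21 (GRCm38) the gene spans chr3:142620602-142638008:
Gbp2: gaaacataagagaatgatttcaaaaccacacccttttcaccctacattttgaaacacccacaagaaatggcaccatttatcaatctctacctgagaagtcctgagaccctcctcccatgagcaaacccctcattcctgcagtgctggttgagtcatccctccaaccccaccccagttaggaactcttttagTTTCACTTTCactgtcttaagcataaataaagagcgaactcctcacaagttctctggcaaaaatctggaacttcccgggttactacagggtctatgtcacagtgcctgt
Igtp, an Irg family regulator (plus strand, chr11:58199306-58199605), has a GAS match followed by an ISRE match, beginning 45 and 34 bases before the start, and Irgm2 has the same order of matches:
Igtp: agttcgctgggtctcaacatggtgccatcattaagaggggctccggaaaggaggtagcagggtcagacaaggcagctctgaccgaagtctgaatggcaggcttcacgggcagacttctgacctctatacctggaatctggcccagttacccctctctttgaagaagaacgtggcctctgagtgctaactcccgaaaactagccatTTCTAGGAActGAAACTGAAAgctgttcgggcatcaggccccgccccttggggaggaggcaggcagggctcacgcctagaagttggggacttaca
Irf1 (plus strand, chr11:53769764-53770063) has a GAS match 90 bases before the start and no ISRE match:
Irf1: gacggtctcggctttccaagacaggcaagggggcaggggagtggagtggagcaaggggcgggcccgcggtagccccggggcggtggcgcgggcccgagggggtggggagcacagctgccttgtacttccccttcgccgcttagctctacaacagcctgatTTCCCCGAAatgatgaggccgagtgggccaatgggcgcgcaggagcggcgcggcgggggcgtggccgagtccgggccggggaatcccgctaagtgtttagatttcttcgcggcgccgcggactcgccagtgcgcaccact
The neighbouring PHD finger genes Phf11b (minus strand, chr14:59341281-59341580) and Phf11c (minus strand, chr14:59393463-59393762) are shown because their levels at 72 h parted. Whether the letters bear on the levels was not tested. In GENCODE M21 (GRCm38) Phf11c spans chr14:59380833-59395381, and its start there lies upstream of the RefSeq window shown. An ISRE match lies 50 bases before the RefSeq start of Phf11b, and neither set of letters lies in the Phf11c window:
Phf11b: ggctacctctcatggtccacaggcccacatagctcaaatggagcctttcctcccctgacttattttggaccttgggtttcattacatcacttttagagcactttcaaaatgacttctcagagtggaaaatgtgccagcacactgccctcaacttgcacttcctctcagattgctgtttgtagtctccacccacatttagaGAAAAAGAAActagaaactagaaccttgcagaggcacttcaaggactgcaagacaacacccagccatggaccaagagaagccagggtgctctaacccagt
Phf11c: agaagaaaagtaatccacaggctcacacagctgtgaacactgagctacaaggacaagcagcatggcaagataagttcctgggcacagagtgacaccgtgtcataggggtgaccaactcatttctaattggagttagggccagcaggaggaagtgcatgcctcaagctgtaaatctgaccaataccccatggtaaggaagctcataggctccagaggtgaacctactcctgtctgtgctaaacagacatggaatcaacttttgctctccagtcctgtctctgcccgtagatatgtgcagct

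Levels are given as adjusted counts per 1000000 of the library (CPM). The deposited values had been scaled to a nearly equal total in every cell and are not molecule counts, so the sequencing depth is unknown and exact (Clopper-Pearson) 95% intervals on shares of cells cover counting error only. A median cell had 2210 genes above 0 at 0 h, while the cultured libraries had medians of 3111 to 3621. The CD8 chain gene Cd8a stood between 412 and 659 CPM in the 5 libraries. Pairs of libraries shared 7 to 18 cell barcodes, 110 in all repeated. The 0 h library stood apart in its values. Igtp was at exactly 1 in 79.9% of the 0 h cells and Tap1 in 62.9%. Gbp2, by contrast, was above 0 in 14.0% of the 0 h cells but at exactly 1 in 0.271% of them, against 18.4% at exactly 1 in the 24 h DC library. A share of 0 h cells therefore describes that library alone, no difference is drawn between it and a share in a cultured library, and each ratio to 0 h carries an unknown bias. A member is called higher or lower past 1.5-fold when it reached 10 CPM in either library of a pair. At that minimum 30 members were measured in some library. The other 6 were Ifit2, Ifih1, Usp18, Oas1a, Oasl1 and Mx1, known antiviral effectors, RNA sensors or feedback enzymes, which stood between 0 and 7.55 CPM everywhere. Genes of near-identical sequence or with overlapping annotation (Ifit3 with Ifit3b, the Gbp and Phf11 families, Gbp4 with Gbp9, Igtp with Irgm2) may have had reads split or lost in counting, and their separate values are uncertain to that extent.

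**Figure D1:**
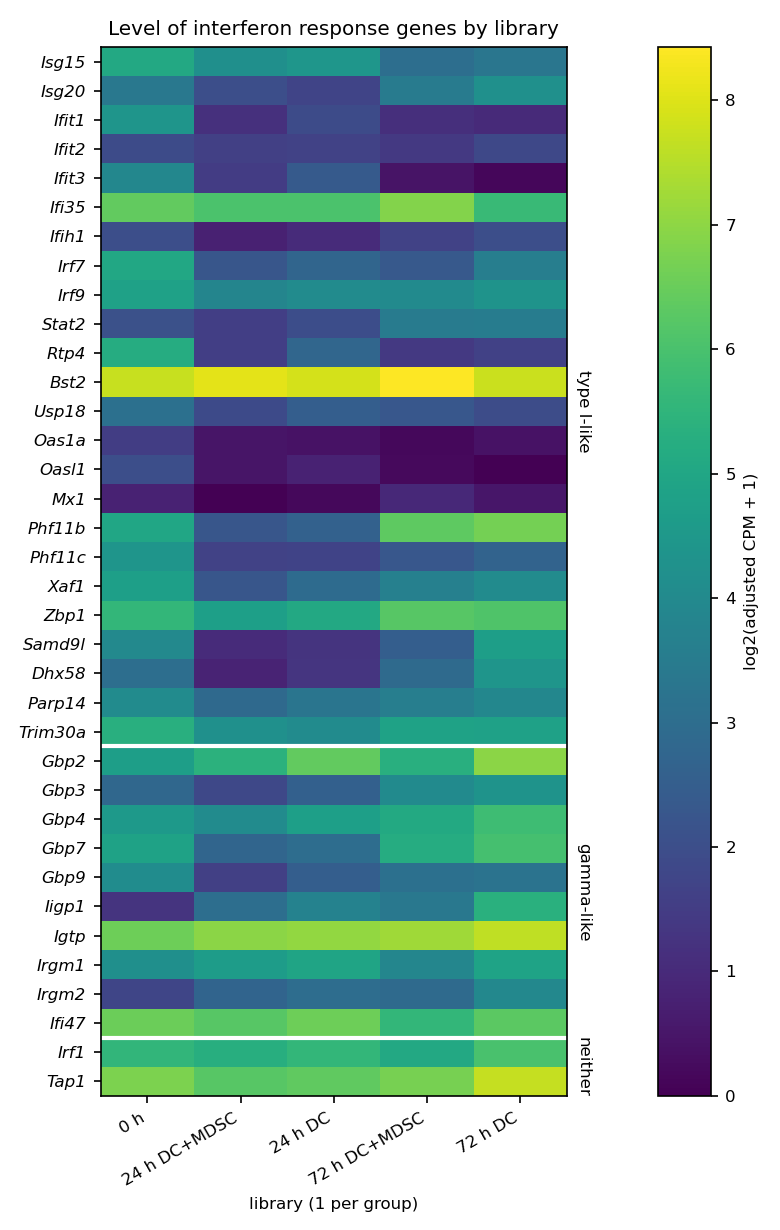
Level of the 36 measured members (rows, by group) in the 5 libraries (columns), coloured by log2(adjusted CPM + 1). Phf11b is light at 72 h (80.5 CPM with MDSCs and 100.2 CPM without) and dark at 24 h (3.74 and 5.18 CPM), while Ifit1 and Rtp4 are lightest at 0 h (19.9 and 36.4 CPM).

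At 24 h with DCs alone the type I-like genes were mostly lower than at 0 h, while the gamma-like genes were divided. Of 15 type I-like members at the minimum, 12 were lower, 0 higher and 3 within 1.5-fold, and of 8 gamma-like members 3 were higher, 2 lower and 3 within. Together with Irf1 and Tap1, 14 of 25 members were lower, where 15.4% of all genes tested were lower, and 3 were higher, where 55.0% of all genes were higher. The median log2 ratio was -1.74 for the type I-like members, 0.36 for the gamma-like members and 0.74 for all 7006 genes tested. Relative to that median of all genes the values were -2.48 and -0.37, so the gamma-like median lay below it. When levels were taken from mean natural log values, so that high cells weigh less, the type I-like median was -0.83.

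Type I-like effectors were lower at 24 h with DCs alone by very different amounts. Ifit1, which binds viral RNA, was at 19.9 CPM at 0 h, 1.25 CPM at 24 h DC+MDSC, 2.80 CPM at 24 h DC, 1.21 CPM at 72 h DC+MDSC and 0.994 CPM at 72 h DC. Rtp4, a chaperone of membrane receptors, stood at 36.4 CPM at 0 h, 1.97 CPM at 24 h DC+MDSC, 5.88 CPM at 24 h DC, 1.64 CPM at 72 h DC+MDSC and 2.13 CPM at 72 h DC. Both were high at 0 h alone and stayed under the minimum in every cultured library. Isg15 was at 32.7 CPM at 0 h, 17.3 CPM at 24 h DC+MDSC, 20.5 CPM at 24 h DC, 7.30 CPM at 72 h DC+MDSC and 9.02 CPM at 72 h DC, so it was the member that was called lower at 24 h and lower again at 72 h with DCs alone. Ifit3, a partner of Ifit1, was at 14.0 CPM at 0 h, 1.83 CPM at 24 h DC+MDSC, 4.20 CPM at 24 h DC, 0.360 CPM at 72 h DC+MDSC and 0.103 CPM at 72 h DC, where only 3 of 1926 cells had a value above 0. At 24 h with DCs alone, against 0 h, the fold was 7.11-fold lower for Ifit1, 6.19-fold for Rtp4, 3.34-fold for Ifit3 and 1.60-fold for Isg15.

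Samd9l, an antiviral restraint on growth, and Phf11c had the largest falls at 24 h with DCs alone, 10.5-fold and 9.07-fold. Irf7, the factor that amplifies type I interferon output, was 5.66-fold lower, at 5.72 CPM in the 24 h DC library against 32.4 CPM at 0 h. Irf9, the DNA-binding part of the type I complex, was 1.74-fold lower, at 15.8 CPM against 27.4 CPM. Stat2, its partner, was under the minimum in both libraries, at 2.96 CPM at 24 h DC and 3.29 CPM at 0 h. Against this, Bst2 (tetherin, which holds budding virus at the cell surface) was at 238 CPM at 24 h DC and 210 CPM at 0 h, within 1.5-fold, although relative to the median of all genes its log2 ratio of 0.18 became -0.55.

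Among gamma-like members, Gbp2 was at 82.8 CPM at 24 h DC against 25.2 CPM at 0 h, 3.29-fold higher. Iigp1, an Irg family GTPase that attacks pathogen vacuoles, was at 12.4 CPM against 1.40 CPM, 8.83-fold higher. Irgm1, a regulator of that family, was 1.71-fold higher, at 29.3 CPM against 17.2 CPM, but relative to the median of all genes its log2 ratio was 0.03. Gbp7 and Gbp9 went the other way, 3.95-fold and 3.35-fold lower. Igtp was at 133 CPM at 24 h DC and 94.4 CPM at 0 h, a log2 ratio of 0.50 that became 1.76 when 0 h values of exactly 1 were taken as 0 (chosen after seeing the data) and -0.24 relative to the median of all genes. Irf1 was at 47.1 CPM at 24 h DC and 46.2 CPM at 0 h, and Tap1 at 81.9 CPM and 108 CPM. Neither passed 1.5-fold, with log2 ratios of 0.03 for Irf1 and -0.40 for Tap1. Relative to the median of all genes, 0.74, both were lower past 1.5-fold.

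**Figure D2:**
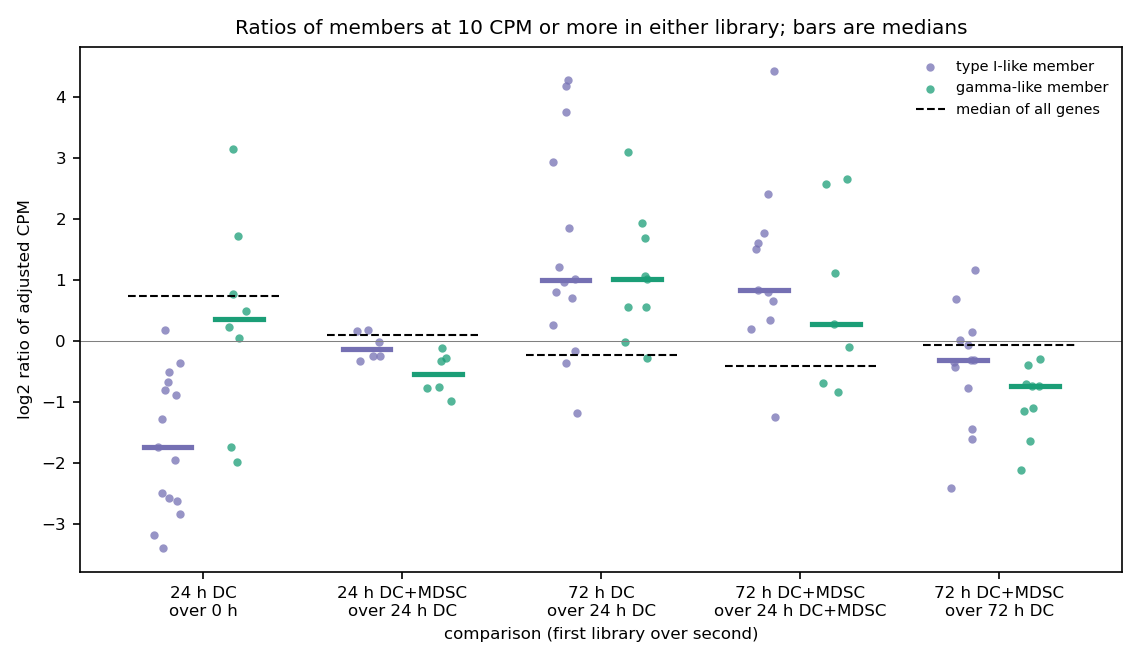
Log2 ratio of adjusted CPM (vertical axis) for each type I-like and gamma-like member at 10 CPM or more, in 5 comparisons named on the horizontal axis as first library over second. Bars are group medians and dashed lines the median of all genes, so that the type I-like bar sits at -1.74 in 24 h DC over 0 h, and the gamma-like bar at -0.74 in 72 h DC+MDSC over 72 h DC.

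From 24 h to 72 h most measured members were higher in the later library, in cultures with and without MDSCs. With DCs alone 16 of 25 members were higher and 1 lower, where 23.1% of all genes tested were higher and 34.8% lower. With MDSCs 11 of 20 members were higher and 3 lower, where 16.9% of all genes were higher and 42.0% lower, and 7 members were higher when mean natural log values were used. With DCs alone the median log2 ratio was 0.99 for type I-like members, 1.01 for gamma-like members and -0.23 for all 7336 genes tested. With MDSCs the same medians were 0.83, 0.28 and -0.41 for all 7125 genes tested. The 24 h DC library is shared by this comparison and that with 0 h, so a high or low value in it enters both in opposite directions.

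The genes that were higher at 72 h were not a return of the 0 h pattern in every case. Phf11b, a PHD finger gene, was at 30.9 CPM at 0 h, 3.74 CPM at 24 h DC+MDSC, 5.18 CPM at 24 h DC, 80.5 CPM at 72 h DC+MDSC and 100.2 CPM at 72 h DC. It was thus 19.3-fold higher at 72 h than at 24 h with DCs alone and 21.5-fold higher with MDSCs. Its neighbour Phf11c was at 20.2 CPM at 0 h, 2.17 CPM at 24 h DC+MDSC, 2.22 CPM at 24 h DC, 3.86 CPM at 72 h DC+MDSC and 5.42 CPM at 72 h DC, under the minimum in all 4 cultured libraries. Of the 14 members lower at 24 h than at 0 h with DCs alone, 7 were higher again at 72 h (Irf7, Phf11b, Xaf1, Samd9l, Parp14, Trim30a and Gbp7), 5 stayed under the minimum at both culture times (Ifit1, Ifit3, Rtp4, Phf11c and Gbp9), Irf9 stayed within 1.5-fold and Isg15 was lower again.

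Samd9l was at 25.5 CPM at 72 h DC against 1.40 CPM at 24 h DC (18.2-fold higher), and Dhx58, a regulator of cytosolic RNA sensors, at 20.1 CPM against 1.48 CPM (13.6-fold higher). Gbp7 was 8.60-fold higher with DCs alone, at 60.2 CPM against 6.995 CPM, and 6.30-fold higher with MDSCs, at 36.0 CPM against 5.71 CPM. Stat2 reached the minimum only at 72 h: it was 3.62-fold higher with DCs alone, at 10.7 CPM against 2.96 CPM, and 5.29-fold higher with MDSCs, at 10.3 CPM against 1.94 CPM. Gbp3 was 5.95-fold higher with MDSCs, at 15.3 CPM against 2.58 CPM. Tap1 was at 207 CPM at 72 h DC against 81.9 CPM at 24 h DC, 2.53-fold higher, and with MDSCs it was within 1.5-fold, at 103 CPM at 72 h against 74.5 CPM at 24 h; whether these changes differ was not tested. Isg15 was lower at 72 h in both, 2.27-fold with DCs alone and 2.36-fold with MDSCs. With MDSCs Irgm1 was 1.79-fold lower and Ifi47, another Irg gene, 1.61-fold lower at 72 h, but relative to the median of all genes both lay within 1.5-fold.

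With MDSCs present at 72 h the gamma-like genes were lower than with DCs alone. Of 9 gamma-like members at the minimum 7 were lower and 0 higher (Gbp2, Gbp4, Gbp7, Iigp1, Irgm1, Irgm2 and Ifi47), with Igtp and Gbp3 within 1.5-fold. Of 13 type I-like members 4 were lower (Isg20, Irf7, Samd9l and Dhx58), 2 higher (Ifi35 and Bst2) and 7 within. With Irf1 and Tap1, both lower, 13 of 24 members were lower, where 14.8% of all genes tested were lower, and 2 were higher, where 8.3% of all genes were higher. The median log2 ratio was -0.74 for gamma-like members, -0.32 for type I-like members and -0.07 for all 6697 genes tested. At a call of 2-fold 8 of the 13 were still lower.

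Gbp2 was at 39.1 CPM at 72 h DC+MDSC against 122 CPM at 72 h DC, 3.13-fold lower, and was above 0 in 34.3% (33.0 to 35.6%) of the cells against 58.0% (55.8 to 60.3%). Iigp1 was at 9.29 CPM against 40.05 CPM, 4.31-fold lower, and was above 0 in 9.59% (8.78 to 10.4%) against 31.8% (29.7 to 33.9%) of the cells. For both genes fewer cells were above 0 as well as the mean level being lower. Samd9l had the largest difference, 5.31-fold, with 4.80 CPM at 72 h DC+MDSC against 25.5 CPM at 72 h DC. Dhx58 was 3.04-fold lower, at 6.61 CPM against 20.1 CPM, and Irf7 2.71-fold lower, at 4.13 CPM against 11.2 CPM.

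Tap1 was 2.01-fold lower with MDSCs at 72 h, at 103 CPM against 207 CPM. Irgm1 was 2.14-fold lower, at 13.5 CPM against 28.9 CPM, and Irf1 1.89-fold lower, at 33.2 CPM against 62.9 CPM. Igtp was at 149 CPM with MDSCs and 196 CPM without, a log2 ratio of -0.39. In the other direction, Ifi35, a leucine zipper protein of the interferon response, was 2.25-fold higher, at 115 CPM at 72 h DC+MDSC against 51.0 CPM at 72 h DC, and was above 0 in 77.6% (76.4 to 78.8%) of the cells against 49.9% (47.7 to 52.2%). Bst2 was 1.61-fold higher, at 344 CPM with MDSCs against 213 CPM without; 98.4% of the cells with MDSCs and 93.9% of those without had a value above 0. Stat2 at 10.3 CPM with MDSCs and 10.7 CPM without, Irf9 at 15.3 CPM and 19.0 CPM, and Phf11b at 80.5 CPM and 100.2 CPM were within 1.5-fold.

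**Figure D3:**
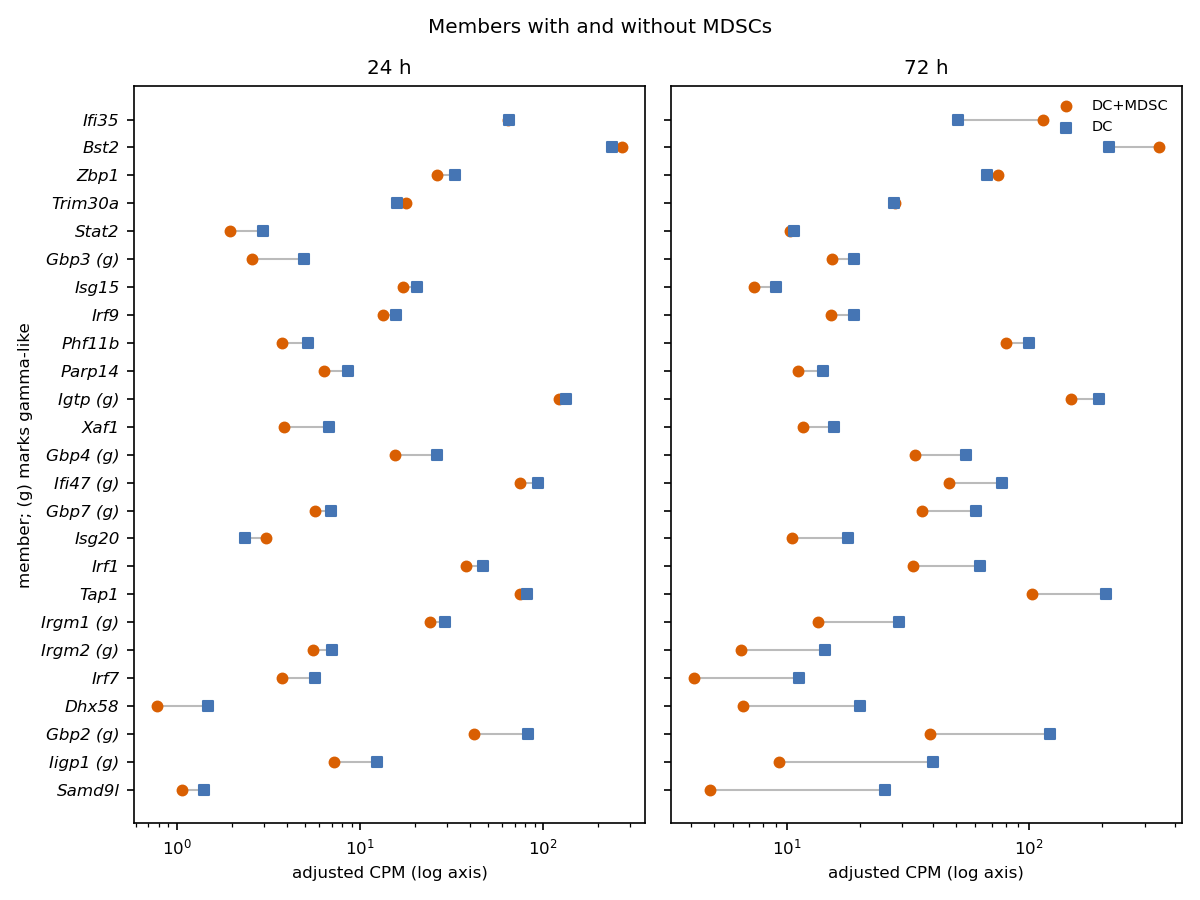
Adjusted CPM (log axis) of the 25 members at 10 CPM or more in any cultured library, with DC+MDSC as circles and DC as squares, at 24 h (left) and 72 h (right); rows run from the largest to the smallest ratio at 72 h. Ifi35 and Bst2 at the top have the circle on the right at 72 h (115 and 344 CPM), and Gbp2, Iigp1 and Samd9l at the bottom have it far to the left (39.1, 9.29 and 4.80 CPM).

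At 24 h fewer members were called with MDSCs than at 72 h, and fewer of all genes were called as well. Of 14 members at the minimum 3 were lower with MDSCs (Gbp2, Gbp4 and Iigp1, all gamma-like), where 1.14% of all genes tested were lower, and 0 were higher, where 2.14% of all genes were higher. At a call of 2-fold 0 were lower, and with the minimum reduced to 2 CPM 12 were. The median log2 ratio was -0.54 over 6 gamma-like members, -0.13 over 6 type I-like members and 0.09 over all 6726 genes tested. Relative to that median of all genes the gamma-like value was -0.63. Whether the size of the difference changed from 24 h to 72 h was not tested. Gbp2 was at 41.8 CPM at 24 h DC+MDSC against 82.8 CPM at 24 h DC, 1.98-fold lower, and was above 0 in 31.3% (29.4 to 33.3%) of the cells against 38.5% (36.1 to 40.9%). Gbp4, a relative of Gbp2, was at 15.6 CPM against 26.3 CPM and Iigp1 at 7.22 CPM against 12.4 CPM. These same 3 genes were also lower with MDSCs at 72 h, from separate libraries. Tap1 at 74.5 CPM with MDSCs and 81.9 CPM without, Irf1 at 38.2 CPM and 47.1 CPM, Irgm1 at 24.2 CPM and 29.3 CPM, and Igtp at 123 CPM and 133 CPM were within 1.5-fold at 24 h.

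Markers of the other cells in the cultures also differed between these libraries. Of 18 myeloid and granulocyte markers 9 were in the table, and summed to 91.6 CPM at 24 h DC+MDSC against 73.8 CPM at 24 h DC, and to 157 CPM at 72 h DC+MDSC against 148 CPM at 72 h DC; most of each sum was Cst3, which was also at 126 CPM at 0 h. Lyz2, S100a8, S100a9, Itgam and Ngp were at 0 at 24 h DC, and S100a8, S100a9 and Ngp at 72 h DC. The 7 of 12 dendritic markers in the table summed to 29.8 CPM at 24 h DC+MDSC against 26.2 CPM at 24 h DC, and to 32.8 CPM at 72 h DC+MDSC against 265 CPM at 72 h DC, where 255 CPM was the MHC class II gene H2-Ab1. H2-Ab1 was above 0 in 89.1% of the 72 h DC cells, so this sum cannot be read as an amount of dendritic cells. At 72 h Cd74 went the other way, at 15.7 CPM with MDSCs against 2.91 CPM without, while Fscn1 was at 0.586 CPM against 6.93 CPM. The remaining dendritic markers were under 1 CPM in both 72 h libraries. A cell above 0 for any of the 12 rarest of these markers was found in 12.995% of the cells at 24 h DC+MDSC against 4.67% at 24 h DC, and in 5.04% at 72 h DC+MDSC against 1.87% at 72 h DC. Without such cells the gamma-like medians were -0.54 at 24 h and -0.74 at 72 h, with 3 and 13 members lower. Mitochondrially encoded genes made up 1.86% of adjusted counts at 24 h DC+MDSC against 1.57% at 24 h DC, and 1.92% at 72 h DC+MDSC against 1.65% at 72 h DC; their part in the result was not tested.

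The ligand itself moved in the other direction at 24 h. Ifng, interferon gamma, was at 1.60 CPM at 0 h, 283 CPM at 24 h DC+MDSC, 123 CPM at 24 h DC, 0.813 CPM at 72 h DC+MDSC and 0.480 CPM at 72 h DC. It was thus 2.31-fold higher with MDSCs at 24 h, in the library where Gbp2, Gbp4 and Iigp1 were lower, and it was under 1 CPM in both 72 h libraries, of which 72 h DC held the highest levels of Tap1, Gbp7 and Iigp1 among the 5. Type I interferon genes were not analysed here.

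Of the receptor genes, Ifngr1, the ligand-binding chain for interferon gamma, was at 120 CPM at 0 h, 24.9 CPM at 24 h DC+MDSC, 25.8 CPM at 24 h DC, 161 CPM at 72 h DC+MDSC and 229 CPM at 72 h DC. It was 4.66-fold lower at 24 h than at 0 h with DCs alone and 8.86-fold higher at 72 h than at 24 h. Ifnar1 had the same order, 2.38-fold lower at 24 h and 2.08-fold higher at 72 h. Ifngr2, the signalling chain, was the receptor gene that was lower with MDSCs at 24 h, at 9.57 CPM at 24 h DC+MDSC against 20.4 CPM at 24 h DC (2.13-fold lower). At 72 h Ifngr2 was at 9.61 CPM with MDSCs and 13.8 CPM without. There 0 of 5 receptor genes passed 1.5-fold, where 14.8% of all genes were lower and 8.3% higher.

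Of the kinase and factor genes, Jak1, a kinase of both pathways, was 1.66-fold lower with MDSCs at 72 h, at 76.3 CPM at 72 h DC+MDSC against 126 CPM at 72 h DC. Irf8, an interferon regulatory factor gene, was 1.82-fold lower, at 113 CPM against 205 CPM. Of 6 inhibitors 3 were higher and 2 lower at 24 h DC than at 0 h, where 55.0% of all genes were higher and 15.4% lower. Their median log2 ratio was 0.54, against 0.74 for all genes. Socs1, which blocks the receptor-bound kinases, was 2.43-fold higher (129 CPM against 53.0 CPM). Cish, of the same family, was 20.04-fold higher (118 CPM against 5.90 CPM), while Socs3 was among the lower genes. At 72 h Cish was 1.79-fold higher with MDSCs, at 67.1 CPM against 37.5 CPM, and the phosphatase gene Ptpn6 1.79-fold lower, at 70.2 CPM against 126 CPM.

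Response genes outside the 37 were counted from lists written by name. Of 47 other type I-like genes in the table, 30 were at the minimum at 24 h DC over 0 h, with 21 lower and 5 higher, where 15.4% of all genes were lower and 55.0% higher. Their median log2 ratio was -1.29, against 0.74 for all genes, but single ratios ran from -4.50 to 6.88. Ly6a and Trim25 were among the higher genes. At 72 h DC over 24 h DC 27 were at the minimum, with 20 higher and 1 lower, where 23.1% of all genes were higher and 34.8% lower. The median there was 1.17, against -0.23 for all genes. Epsti1, an epithelial-stromal interaction gene, was at 279 CPM at 0 h, 13.9 CPM at 24 h DC+MDSC, 12.9 CPM at 24 h DC, 110 CPM at 72 h DC+MDSC and 182 CPM at 72 h DC. In the MDSC comparison at 72 h 8 of 28 were lower and 1 higher, where 14.8% of all genes were lower and 8.3% higher, and the median was -0.33 against -0.07 for all genes. At 24 h 2 of 21 were lower with MDSCs and 0 higher, where 1.14% of all genes were lower and 2.14% higher. Slfn1, a Schlafen family gene, was 3.03-fold lower with MDSCs at 72 h, at 7.85 CPM at 72 h DC+MDSC against 23.8 CPM at 72 h DC. Lgals9, which encodes galectin-9, was the gene called higher, at 73.3 CPM against 48.2 CPM. The counts come from the same libraries as those of the members.

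The spread of the members over cells was read from the share held by the highest cells. For all 24 type I-like members the 5% of cells with the highest sum held 21.2% of the summed value at 0 h, 14.5% at 24 h DC+MDSC, 20.7% at 24 h DC, 10.4% at 72 h DC+MDSC and 10.5% at 72 h DC. Bst2 and Ifi35 were above 0 in so many cells that the share was also taken over the other 22 type I-like members, a choice made after seeing the values. There the highest 5% held 29.1% of the summed value at 0 h, 27.0% at 24 h DC+MDSC, 39.4% at 24 h DC, 13.9% at 72 h DC+MDSC and 12.4% at 72 h DC. The cells with 8 or more of the 22 members above 0 numbered 8 cells at 24 h DC+MDSC (0.356%), 20 cells at 24 h DC (1.28%), 35 cells at 72 h DC+MDSC (0.708%) and 46 cells at 72 h DC (2.39%). The 0 h library held 112 such cells (3.79%), a share not compared with the others because its values stood apart. The limit of 8 is a point on a range, with 0.223% to 3.32% of the cells of a library at exactly 7 members, and whether the cells past it form a separate group was not tested. At 72 h the median was 3 members above 0 in both libraries, against 1 member at 24 h in both.

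**Figure D4:**
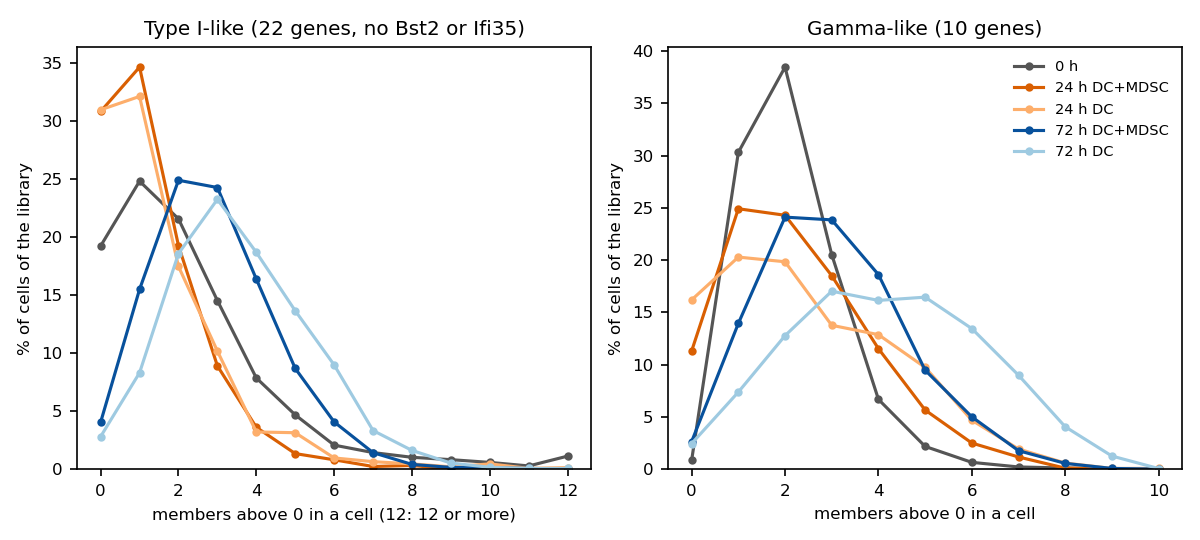
Share of the cells of each library (vertical axis, %) by the number of type I-like members (left, 22 genes) or gamma-like members (right, 10 genes) above 0 in a cell (horizontal axis); the 0 h line describes that library alone. Of the cultured libraries the 72 h DC line lies furthest to the right for the gamma-like genes, where the medians are 2 members in both 24 h libraries, 3 at 72 h DC+MDSC and 4 at 72 h DC.

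For the gamma-like members the highest 5% of cells held 18.1% of the summed value at 0 h, 22.05% at 24 h DC+MDSC, 28.3% at 24 h DC, 16.001% at 72 h DC+MDSC and 14.8% at 72 h DC. These shares were above those of all 24 type I-like members in the 4 cultured libraries. Against the 22 members they were below at 24 h and above at 72 h, so which group was the more even depended on Bst2 and Ifi35 and on the time. At 72 h 16.8% (15.8 to 17.9%) of the DC+MDSC cells had 5 or more of the 10 members above 0, against 44.2% (42.0 to 46.5%) of the DC cells. Across the cells of a library the type I-like sum of 22 members and the gamma-like sum were related with Spearman rho 0.21 at 0 h (n = 2952 cells), 0.30 at 24 h DC+MDSC (n = 2247), 0.48 at 24 h DC (n = 1562), 0.28 at 72 h DC+MDSC (n = 4942) and 0.34 at 72 h DC (n = 1926). These are descriptions: the cells of a library share its scaling, and sparse values weaken any rho.

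Cells above 0 for Ifit3 had higher levels of Isg15, Ifit1 and Rtp4, though many of them were at 0 for these genes. In the 24 h DC library the 50 cells above 0 for Ifit3 had Isg15 at 176 CPM against 15.5 CPM in the other 1512 cells, Ifit1 at 45.4 CPM against 1.44 CPM and Rtp4 at 94.8 CPM against 3.06 CPM. Gbp2 was at 525 CPM in these cells against 68.8 CPM, and Igtp at 270 CPM against 129 CPM, so gamma-like members were high in them as well. Klf2, a factor of resting T cells and no member, was at 143 CPM against 16.6 CPM. Of these 50 cells 56% were above 0 for Isg15, 46% for Rtp4 and 30% for Ifit1. They had a median of 3057 genes above 0 against 3588, and Cd8a at 636 CPM against 405 CPM. In the 24 h DC+MDSC library the 43 cells above 0 for Ifit3 had Isg15 at 42.5 CPM against 16.8 CPM. Ifit1 was at 13.6 CPM against 1.01 CPM there, and Rtp4 at 31.8 CPM against 1.39 CPM. At 0 h the 213 cells above 0 for Ifit3 had Ifit1 at 147 CPM against 9.99 CPM, Isg15 at 202 CPM against 19.5 CPM and Gbp2 at 51.6 CPM against 23.1 CPM in the other 2739 cells.

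The gamma-like members were not highest in the cells that held Ifng at 24 h. In the 24 h DC+MDSC library they summed to 239 CPM in the 640 cells above 0 for Ifng and to 328 CPM in the 1607 cells at 0. In the 24 h DC library the sums were 294 CPM in 247 cells above 0 and 422 CPM in 1315 cells at 0. The median cell differed less: its gamma-like sum was 2 against 3 with MDSCs, and 3 in both sets with DCs alone. Igtp was at 93.6 CPM in cells above 0 for Ifng against 134.8 CPM in cells at 0 with MDSCs, and at 89.8 CPM against 141 CPM with DCs alone. Irf1 was at 28.3 CPM against 42.1 CPM with MDSCs and at 32.7 CPM against 49.8 CPM with DCs alone. Isg15 was at 17.1 CPM against 17.3 CPM with MDSCs and at 15.8 CPM against 21.3 CPM with DCs alone. The type I-like members without Bst2 and Ifi35 summed to 106 CPM against 116 CPM with MDSCs. Their sums with DCs alone were 106 CPM against 151 CPM, so the lower level there was not particular to gamma-like members. Including Bst2 and Ifi35, the sums with DCs alone were 409 CPM against 454 CPM, while the median sum of a cell was 6 against 5. The median number of genes above 0 was 3628 in cells above 0 for Ifng against 3617 with MDSCs, and 3666 against 3567 with DCs alone.

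**Figure D5:**
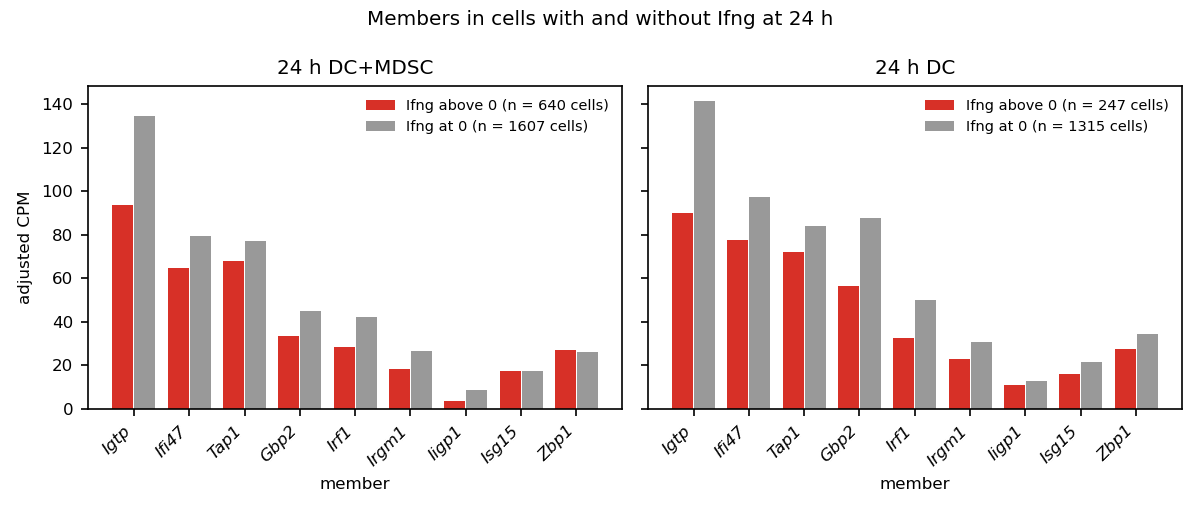
Adjusted CPM (vertical axis) of 9 members in the cells above 0 for Ifng (red) and at 0 for Ifng (grey) at 24 h, with DCs and MDSCs on the left and DCs alone on the right; each bar sums the cells of 1 library and has no error. The red bar is the lower for Igtp (93.6 against 134.8 CPM with MDSCs) and Irf1 (28.3 against 42.1 CPM) in both panels.

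A split by Gzmb, the gene of the effector protein granzyme B, went with a larger difference at 24 h. In the 0 h library 2944 cells were above 0 for Gzmb and 8 at 0. A value above 0 therefore does not by itself mark an activated cell. With DCs alone the gamma-like members summed to 530 CPM in the 1005 cells above 0 for Gzmb against 175 CPM in the 557 cells at 0. With MDSCs they summed to 315 CPM in 2072 cells above 0 against 163 CPM in 175 cells at 0. The type I-like members without Bst2 and Ifi35 were also higher in the cells above 0 for Gzmb. They summed to 188 CPM against 66.0 CPM with DCs alone and to 115 CPM against 84.3 CPM with MDSCs. Among cells above 0 for Gzmb, Gbp2 was at 43.0 CPM at 24 h DC+MDSC against 113 CPM at 24 h DC and Iigp1 at 7.69 CPM against 18.2 CPM, so the lower level with MDSCs was present within the Gzmb-positive cells. Among cells at 0 for Gzmb the values were close, with Gbp2 at 27.7 CPM at 24 h DC+MDSC and 29.5 CPM at 24 h DC.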

How the data were processed

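Sorted OT-I CD8+ T cells were profiled on the 10x Genomics platform, per the labels' protocols, in 5 groups of 1 library each. The submitters' processing notes name Cell Ranger 2.0.1, Seurat and the build mm10, without roles or settings. The authors' 3 deposited tables hold natural log values, each the log of 1 more than an adjusted integer (whole within 1e-06). The way of adjustment was not given in the sources used here. Their total per cell spanned 13061 to 15988 in the table of all time points, so they are not molecule counts; depth is unknown, and no count model, thinning or doublet caller was applied.

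These integers were back-transformed, added over the cells of a library and expressed per 1000000 of its total. A gene was called past 1.5-fold at 10 CPM or more in either library, in 5 comparisons, with no p-value. Members, lists and rules were chosen with earlier results of these data known. Named members were the 4 with the largest fold in each direction and a fixed set of 11 (Irf1, Irf7, Irf9, Stat2, Isg15, Ifit3, Bst2, Gbp2, Irgm1, Igtp and Tap1); other members, and the splits of cells by Ifit3 and Gzmb, were chosen after their values were seen. Pathway genes that could be named were receptors, kinases, factors and inhibitors at the minimum, and the extreme 2 of each other list at 20 CPM or more. Of 115 pathway genes listed 99 were in the table. Not every pathway gene so allowed is given a value here. Promoters are from RefSeq. Work was done in Python 3.11.15 with numpy 2.4.6, scipy 1.17.1, pandas 2.3.3 and matplotlib 3.10.9.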

Additional observations from a re-analysis of the deposited data

How the results depend on the processing

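No paired analysis was possible because each group is 1 library, and no library could be left out. No called value changed sign under any alternative run. With every cell weighted equally, with the separate tables of 24 h and 72 h, without genes of low variance over cells, without cells above 0 for a rare myeloid or dendritic marker, with 0 h values of exactly 1 taken as 0 (chosen after seeing the data), and with Irf1 and Tap1 added to or Ifi47 removed from the gamma-like group, every count stayed within 1.5 times and no group median changed sign. Without Ifi47, however, the gamma-like median of 72 h DC+MDSC over 24 h DC+MDSC was 0.70 in place of 0.28. Counts changed mainly with the minimum, as fewer or more genes are then tested. At a minimum of 50 CPM, members higher and lower were 1 and 0 for 24 h DC over 0 h, members lower were 1 for 24 h DC+MDSC over 24 h DC, members higher and lower were 5 and 0 for 72 h DC over 24 h DC and 3 and 1 for 72 h DC+MDSC over 24 h DC+MDSC, and members lower were 6 for 72 h DC+MDSC over 72 h DC. Pathway genes higher and lower there were 6 and 20, then lower 1, then 19 and 6, 12 and 7, and lower 10, in the same order of comparisons. The type I-like median was then -0.087 for 24 h DC over 0 h and 0.42 for 72 h DC+MDSC over 72 h DC, where few members were left. Medians near 0 also changed sign at that minimum, to 0.085 for type I-like members at 24 h with MDSCs (0.011 from mean natural log values) and to -0.21 for gamma-like members of 72 h DC+MDSC over 24 h DC+MDSC. At a minimum of 2 CPM, members lower were 12 and pathway genes lower 10 for 24 h DC+MDSC over 24 h DC, and members lower 5 for 72 h DC over 24 h DC. With no minimum, members lower were 16 at 24 h DC+MDSC over 24 h DC and 6 in each 72 h over 24 h comparison, members higher were 17 for 72 h DC+MDSC over 24 h DC+MDSC and 5 for 72 h DC+MDSC over 72 h DC. Pathway genes with no minimum were 6 higher and 15 lower at 24 h DC+MDSC over 24 h DC, 19 lower at 72 h DC over 24 h DC, 41 higher and 21 lower at 72 h DC+MDSC over 24 h DC+MDSC, and 10 higher at 72 h DC+MDSC over 72 h DC. At a call of 2-fold, members lower were 0 (24 h, MDSC), 1 (72 h DC+MDSC over 24 h DC+MDSC) and 8 (72 h, MDSC), with 1 higher in the last. Pathway genes were 1 lower (24 h, MDSC), 23 higher and 6 lower (72 h DC over 24 h DC), 6 lower (72 h DC+MDSC over 24 h DC+MDSC), and 0 higher and 5 lower (72 h, MDSC). Levels from the mean natural log value gave 7 members higher for 72 h DC+MDSC over 24 h DC+MDSC, 2 pathway genes higher and 2 lower at 24 h with MDSCs, and a type I-like median of -0.83 for 24 h DC over 0 h. Ratios centred on the median of all genes gave medians of -2.48 (type I-like) and -0.37 (gamma-like) and 11 pathway genes higher for 24 h DC over 0 h, and 1 member and 6 pathway genes lower for 72 h DC+MDSC over 24 h DC+MDSC. Without ribosomal protein and mitochondrial genes in the total, pathway genes were 8 lower at 24 h with MDSCs, 40 higher for 72 h DC+MDSC over 24 h DC+MDSC and 4 higher at 72 h with MDSCs. Where an alternative changed no set of genes tested, the cause was not tested. The unknown depth limits every value near 1 count in a cell.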

Other observations

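Genes of antigen processing and MHC class I, which interferons also raise, were listed by name, and all 13 were at the minimum. At 24 h DC against 0 h 7 of 13 were lower and 1 higher, where 15.4% and 55.0% of all genes were lower and higher. H2-Q7, a nonclassical class I gene, was at 114 CPM at 24 h DC against 284 CPM at 0 h, 2.49-fold lower, and Tapbp, the tapasin that loads peptide, at 76.9 CPM against 158 CPM. At 72 h DC against 24 h DC 6 of 13 were higher and 2 lower, where 23.1% of all genes were higher and 34.8% lower. Psmb9, an immunoproteasome subunit, was at 524 CPM at 72 h DC against 116 CPM at 24 h DC, 4.52-fold higher. With MDSCs it was at 449 CPM at 72 h against 121 CPM at 24 h, 3.71-fold higher. At 24 h DC+MDSC against 24 h DC 0 of 13 passed 1.5-fold, where 1.14% of all genes were lower and 2.14% higher. At 72 h DC+MDSC against 72 h DC 3 of 13 were lower and 0 higher, where 14.8% of all genes were lower and 8.3% higher; the list's median log2 ratio was -0.36, against -0.07 for all genes. H2-Q7 was at 210.4 CPM at 72 h DC+MDSC against 353 CPM at 72 h DC, 1.68-fold lower, and H2-T23, another nonclassical class I gene, at 53.3 CPM against 84.9 CPM, 1.59-fold lower.

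Of 11 other gamma-like genes measured, 5 were at the minimum at 24 h DC over 0 h, with 4 higher and 1 lower, where 55.0% of all genes were higher and 15.4% lower. At 72 h DC over 24 h DC 1 of 5 was higher and 2 lower, where 23.1% of all genes were higher and 34.8% lower. Their median log2 ratio was -0.36, against -0.23 for all genes and 1.01 for the gamma-like members. At 72 h DC+MDSC over 72 h DC 0 of 3 passed 1.5-fold, where 14.8% of all genes were lower and 8.3% higher. The median there was 0.06, against -0.07 for all genes and -0.74 for the gamma-like members. At 24 h DC+MDSC over 24 h DC 1 of 4 was lower and 0 higher, where 1.14% of all genes were lower and 2.14% higher. Wars, a tryptophanyl-tRNA synthetase induced by interferon gamma, was at 11.6 CPM at 0 h, 52.2 CPM at 24 h DC+MDSC, 47.4 CPM at 24 h DC, 27.0 CPM at 72 h DC+MDSC and 37.0 CPM at 72 h DC. Gbp8, a guanylate binding protein, was at 11.998 CPM at 0 h, 1.71 CPM at 24 h DC+MDSC, 3.004 CPM at 24 h DC, 24.9 CPM at 72 h DC+MDSC and 23.9 CPM at 72 h DC.

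Of 7 nucleic acid sensors and adaptors measured, 5 were at the minimum at 24 h DC over 0 h, with 3 higher and 1 lower. Of all genes tested there, 55.0% were higher and 15.4% lower. The higher genes of the list were Mavs, Mb21d1 and Aim2 and the lower gene Ddx58, named after their values were seen. Ddx58, which encodes the RNA sensor RIG-I, was at 2.43 CPM at 24 h DC against 19.8 CPM at 0 h. At 72 h DC over 24 h DC 1 of 5 was higher and 1 lower, where 23.1% of all genes were higher and 34.8% lower. Tmem173, the adaptor STING, was at 37.4 CPM at 72 h DC against 22.8 CPM at 24 h DC, 1.64-fold higher. With MDSCs 0 of 4 passed 1.5-fold at 24 h, where 1.14% of all genes were lower and 2.14% higher. At 72 h 1 of 3 was lower with MDSCs, where 14.8% of all genes were lower and 8.3% higher. This was Tbk1, at 7.89 CPM at 72 h DC+MDSC against 12.2 CPM at 72 h DC.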
